A study of Rattus norvegicus with 48 samples.

Results

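Cyclic nucleotide phosphodiesterases are the enzymes that cleave cAMP and cGMP, and 10 of their genes were followed here through rat primary cortical cultures exposed to the HIV-1 protein Tat, to cocaine and to 4 small molecules. The genes, Pde1a, Pde1b, Pde1c, Pde2a, Pde4a, Pde4b, Pde4d, Pde5a, Pde9a and Pde10a, were taken by their symbols from the 30211 genes of the expression table. They were chosen with earlier results of these data known, so counts of members called describe this list only. All 10 passed the filter on low values that left 15890 genes for testing. A further 14 genes of the family were listed for comparison, of which 11 passed.

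The cultures came from the brains of 18-day-old Sprague-Dawley rat fetuses and were used after 21 days in vitro, and 48 RNA-seq libraries in 16 groups of 3 were measured. Control cultures carried no drug. Tat was given at 6 ng/mL for 48 h and cocaine at 25 µM for 24 h, as Tat, Cocaine and Tat-Cocaine. In the combination the authors describe cocaine as coming after the 48 h of Tat. If Tat-Cocaine cultures were harvested later than Tat cultures, cocaine and time cannot be told apart between them. The remaining 12 groups received a compound alone, with Tat, or with Tat and cocaine. These compounds were 4OI (4-octyl itaconate, a membrane-permeable itaconate ester) at 250 µM, Amlexanox (an inhibitor of the kinases TBK1 and IKKε) at 25 µM, Tazemetostat (an inhibitor of the histone methyltransferase EZH2) at 3 µM and Senicapoc (a blocker of the potassium channel KCa3.1, encoded by Kcnn4) at 1 µM. The 4OI stock was in DMSO, and the sources used here do not say whether Control cultures received the solvent. Nor do they tie a library to a litter or dissection, so the spread within a group is that between these samples.

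The labels name neurons, but the cultures were mixed. Markers of neurons, astrocytes, microglia and oligodendrocytes were read in each library, and the 6 mural cell markers (of pericytes and smooth muscle) summed to 138 to 1420 CPM, with Rgs5, a pericyte gene, at 1.44 CPM or less. Of the endothelial genes Cldn5 stayed at or near 0 (at most 0.1 CPM), Flt1 reached 2.17 CPM and Cdh5 5.72 CPM, and Kdr read 0.242 to 1.70 CPM. The depth, read from the value of 1 read in each library, was 17.5e6 to 29.1e6 reads on genes. One library stood apart: the 6 oligodendrocyte markers summed to 25395 CPM in Cocaine replicate 3 and to at most 2233 CPM elsewhere. RNA was taken from whole cultures, so fewer cells of a type and less RNA per cell cannot be told apart in any value below.

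Phosphodiesterases set how long and how far a cyclic nucleotide signal spreads after adenylyl or guanylyl cyclases have made it. The family is divided by substrate and control. PDE4 enzymes cleave cAMP and are the targets of rolipram, PDE5 and PDE9 cleave cGMP, and PDE1 (switched on by calcium and calmodulin), PDE2 (switched on by cGMP) and PDE10 cleave both. In brain, PDE2A and PDE10A are abundant in neurons, PDE10A above all in striatal projection neurons, while PDE4B is also made by microglia and other immune cells, where cAMP restrains inflammatory signalling.

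Promoter sequences are shown for Pde4b and Pde5a, the members that were called higher with Tat and lower with 4OI on Tat. RefSeq (assembly GRCr8) gave 18 promoter windows for 8 members and none for Pde1b and Pde9a. The 250 bases before each start are printed 5′ to 3′ in lower case, with motif matches on either strand in capitals. Both Pde4b windows lie on the plus strand of chromosome 5, at chr5:122028706-122028955 and chr5:122222323-122222572, and the Pde5a window lies on the plus strand at chr2:213543776-213544025.
Pde4b window 1: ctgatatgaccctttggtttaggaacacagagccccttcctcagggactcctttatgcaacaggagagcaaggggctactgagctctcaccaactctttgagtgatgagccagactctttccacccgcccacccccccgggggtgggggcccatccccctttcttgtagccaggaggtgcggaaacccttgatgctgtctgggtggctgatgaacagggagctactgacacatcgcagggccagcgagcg
Pde4b window 2: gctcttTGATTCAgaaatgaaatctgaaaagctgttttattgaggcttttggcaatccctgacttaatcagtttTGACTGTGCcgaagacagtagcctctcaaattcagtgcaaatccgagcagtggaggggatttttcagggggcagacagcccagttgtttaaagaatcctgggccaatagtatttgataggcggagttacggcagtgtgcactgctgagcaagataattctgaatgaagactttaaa
Pde5a window 1: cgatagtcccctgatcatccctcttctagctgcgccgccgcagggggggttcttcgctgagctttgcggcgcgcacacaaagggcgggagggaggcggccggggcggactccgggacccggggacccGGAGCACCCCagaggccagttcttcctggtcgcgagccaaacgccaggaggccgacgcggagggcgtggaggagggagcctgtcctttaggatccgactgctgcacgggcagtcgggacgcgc

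In Pde4b window 2 the capitals mark TGATTCA, 244 to 238 bases before the start. It matches TGANTCA, a loose form of the AP-1 motif in which N is any base, here T. They also mark a match to TGACNNNGC, the core of the antioxidant response element bound by Nrf2, 176 to 168 bases before the start. In the Pde5a window they mark a match to the NF-kB motif, 123 to 114 bases before the start. Of all 33469 windows searched, 6.34% held the loose AP-1 form TGANTCA, 10.1% the antioxidant core and 6.33% the NF-kB motif. No member window held the cAMP response element TGACGTCA (1.59% of all windows), the core of the interferon-stimulated response element (3.41%), the STAT motif TTCNNNGAA (7.67%) or the E-box CACGTG (5.59%). These are matches of letters and were not measured as binding.

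**Figure D1:**
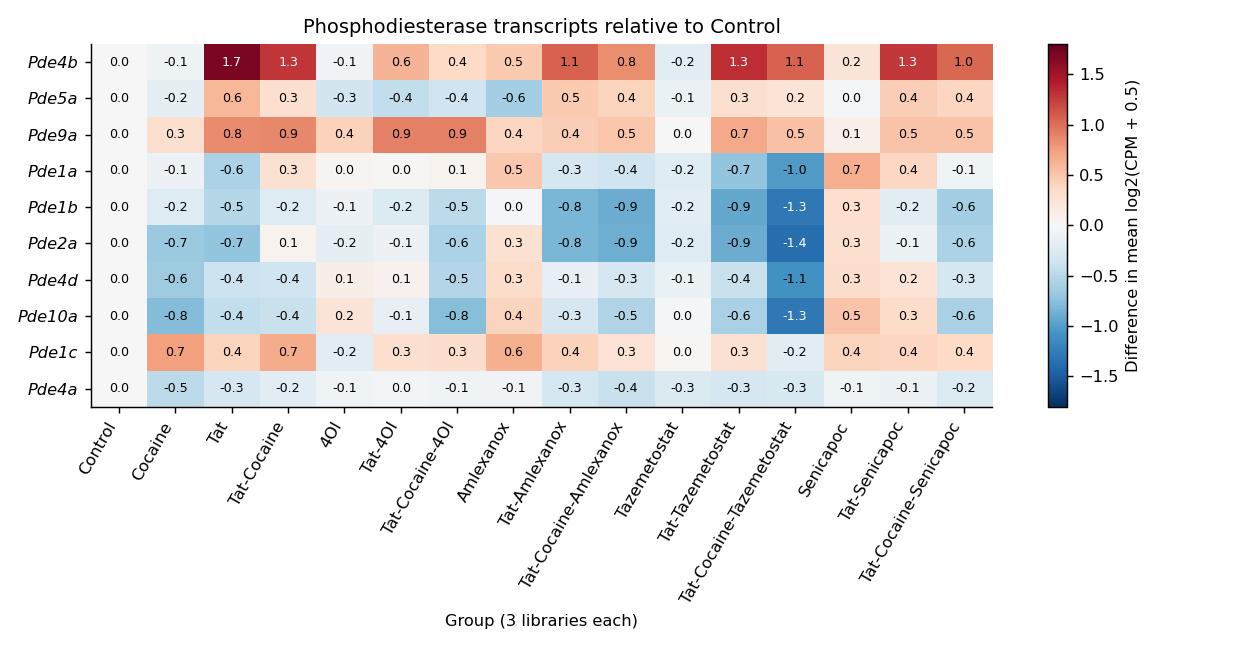
Mean log2(CPM + 0.5) of each gene (rows) in each of the 16 groups (columns, 3 libraries each) minus that in Control, with the difference printed in each cell. Pde4b, at the top, is higher in the Tat cultures, with 1.69 in Tat, and the rows of Pde1a, Pde1b, Pde2a, Pde4d and Pde10a are lowest in Tat-Cocaine-Tazemetostat.

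Levels are given as CPM (read counts brought to a common total with TMM scaling) and were compared within a gene, not between genes, since gene lengths were not used. Between its lowest and highest group mean, Pde10a spanned 3.63-fold, Pde4b 3.62-fold and Pde1a 3.24-fold, and Pde4a spanned 1.35-fold. With the 16 groups ordered by their means, most neighbours overlapped, which is likely for adjacent means of 3 libraries each. Of the 15 pairs of neighbours in a gene's order, 1 did not overlap for Pde4b (Tat, the highest, above the next) and 1 for Pde4d (Tat-Senicapoc above the next), and 0 for the other 8 genes. This count was not taken over all genes, so it has no background to be read against.

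Differences below are log2 fold changes of CPM + 0.5 with their standard error (SE), from a limma fit to the 48 libraries, with the false discovery rate (FDR) taken over the 15890 genes. A gene was called changed at an FDR under 0.05.

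Tat on its own raised 3 of the 10 genes, Pde4b, Pde9a and Pde5a, and lowered 0. Of all genes tested, 21.3% were called in this comparison, 14.6% as higher and 6.7% as lower, and the 3 of 10 are to be read against that background. Pde4b, a cAMP-specific enzyme, read 38.8, 39.4 and 21.7 CPM in the Control libraries and 97.7, 113 and 104 CPM in those with Tat. Each Tat library lay above each Control library by a wide margin. The means were 33.3 ± 10.1 (SD, n = 3) and 105 ± 7.54 CPM (SD, n = 3), and the log2 fold change was 1.69 (SE 0.25, FDR 7.13e-06 in limma).

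Pde9a encodes a cGMP-specific enzyme of high affinity. It was read at 21.2, 22.6 and 12.4 CPM in Control and at 34.8, 30.03 and 34.4 CPM with Tat. The groups did not overlap, which held for 33% of all genes in this comparison. The log2 fold change was 0.85 (SE 0.20, FDR 0.00216 in limma), although in a fit to these 6 libraries alone the call was lost (FDR 0.0696). Pde5a, the cGMP-specific target of sildenafil, read 13.2, 12.6 and 18.4 CPM in Control and 25.0, 24.9 and 17.5 CPM with Tat. Here the groups overlapped, since Control replicate 3 lay above Tat replicate 3. The log2 fold change of 0.59 (SE 0.22) had an FDR of 0.0493 in limma and missed the threshold under 11 of 16 other settings, among them without Tat replicate 1 (FDR 0.151), Tat replicate 2 (0.199), Control replicate 1 (0.167) or Control replicate 2 (0.154).

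The other 7 members were not called. Their log2 fold changes ran from -0.72 for Pde2a (FDR 0.0815) to 0.40 for Pde1c (FDR 0.343), and without Tat replicate 3 the difference of Pde2a was -0.94 and was called (FDR 0.0344). Cell type markers moved in the same cultures. The 10 neuron markers summed to 1378 to 2562 CPM with Tat and to 2582 to 3996 CPM in Control, though 0 of the 10 were called. Of the 8 microglia markers 3 were called higher (Aif1, Itgam and Ptprc) and 4 of the 8 astrocyte markers lower, with astrocyte sums of 7017 to 9392 CPM against 10452 to 12477 CPM. The mural markers summed to 550 to 830 CPM against 1028 to 1297 CPM (2 of 6 called lower) and the 8 striatal neuron markers to 83.5 to 175 CPM against 210 to 339 CPM (1 called lower), without overlap. The part of these shifts in the 3 rises was not tested.

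**Figure D2:**
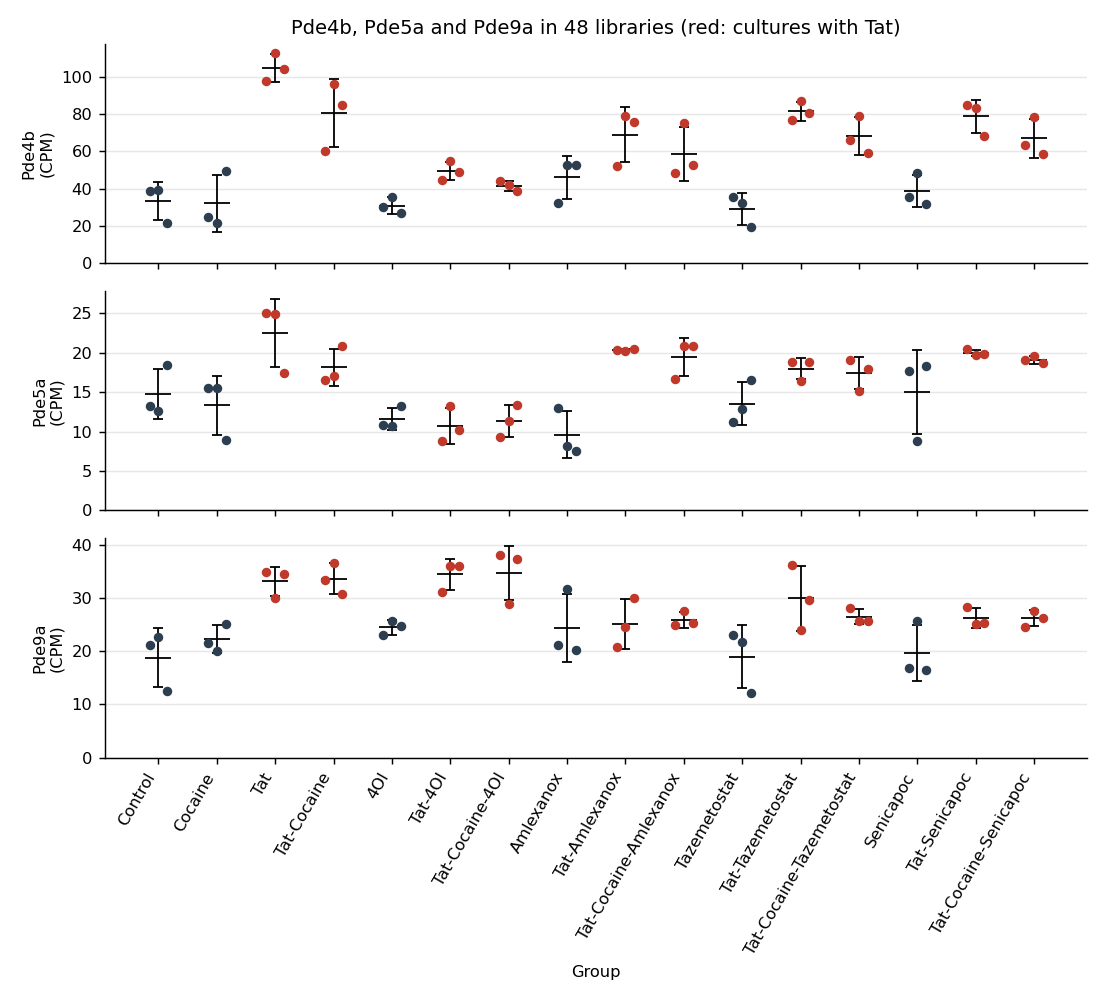
CPM (linear axes from 0) of Pde4b, Pde5a and Pde9a in each library of the 16 groups, as points, with the mean (wide mark) and SD (bars). Pde4b is highest in Tat (97.7 to 113 CPM) and lies lower with Tat-4OI, whereas the Pde9a libraries of Tat and Tat-4OI overlap.

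Cocaine changed little. Against Control, 0.201% of genes were called (0.0378% higher, 0.164% lower) and 0 of the 10 members. An unadjusted p under 0.05 was reached by 5 members and by 1996 of the 15890 genes. Pde10a read 27.3, 19.8 and 13.5 CPM in Control and 20.1, 9.36 and 7.16 CPM with cocaine, a log2 fold change of -0.78 (SE 0.26, FDR 0.192). Replicate 1 of the Cocaine group lay within the Control range and the other two below it. Without it 4 members were called lower, namely Pde4a at -0.71 (FDR 0.00036), Pde10a at -1.20 (FDR 0.00192), Pde4d at -0.95 (FDR 0.0119) and Pde2a at -1.02 (FDR 0.0299). The share of all genes called without that library was not taken, so these 4 calls have no background to be read against. The neuron markers summed to 1186 to 3450 CPM with cocaine and to 2582 to 3996 CPM in Control, and their part was not tested. Pde1c, a calmodulin-dependent enzyme, was highest of all libraries in Cocaine replicate 3 (11.6 CPM), the library with the oligodendrocyte transcripts, against 5.57 and 3.57 CPM in the other two.

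Tat with cocaine raised Pde4b and Pde9a again. The comparison with Control, which uses the same Control libraries as that of Tat, called 14.9% of genes, 8.63% as higher and 6.3% as lower. Pde4b was read at 60.3, 96.3 and 84.7 CPM in Tat-Cocaine, each above Control, for a log2 fold change of 1.28 (SE 0.25, FDR 0.000507 in limma). Between these groups 28.4% of all genes did not overlap. Pde9a read 33.4, 36.6 and 30.8 CPM and differed by 0.87 (SE 0.20, FDR 0.0025 in limma). In a fit to the 6 libraries alone neither was called, with FDR values of 0.0523 for Pde4b and 0.0885 for Pde9a. Beside these rises the astrocyte markers summed to 6999 to 8901 CPM against 10452 to 12477 CPM in Control (3 of 8 called lower) and the mural markers to 499.9 to 557 CPM against 1028 to 1297 CPM (3 of 6 called lower), and their part was not tested. Adding cocaine to Tat called 0.0189% of genes and 0 members (2 members and 1297 of all genes at an unadjusted p under 0.05). The difference of Pde4b between Tat-Cocaine and Tat was -0.41 with a 95% interval of -0.92 to 0.11.

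The 4OI comparisons address whether this itaconate ester alters what Tat does. On Tat, 4OI lowered 2 of the 10 members, Pde4b and Pde5a, and raised 0, where 15.6% of all genes were called, 9.48% as lower and 6.1% as higher. Pde4b fell from 97.7, 113 and 104 CPM in Tat to 44.8, 54.6 and 48.9 CPM in Tat-4OI. The highest Tat-4OI library thus lay far below the lowest Tat library, and the log2 fold change was -1.08 (SE 0.25, FDR 0.00327 in limma). Pde5a was read at 8.78, 13.3 and 10.2 CPM in Tat-4OI, each below the 3 Tat libraries, with a log2 fold change of -1.03 (SE 0.22, FDR 0.00121 in limma). Neither gene overlapped between the groups, nor did 34.9% of all genes. Under the 16 other settings planned both calls held, with FDR values up to 0.0251 for Pde4b and up to 0.0332 for Pde5a.

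Pde9a did not follow. Its levels in Tat-4OI, 31.1, 36.1 and 36.1 CPM, overlapped those in Tat, and the difference was 0.06 with a 95% interval of -0.35 to 0.46. In the same cultures the neuron marker sum was 2902 to 3664 CPM and the microglia sum 371 to 911 CPM, against 1019 to 1830 CPM of the microglia list in Tat. Of the 8 microglia markers 2 were called lower and of the 10 neuron markers 0 were called. The striatal neuron markers summed to 274 to 312 CPM against 83.5 to 175 CPM in Tat, with 1 of the 8 called higher. Whether these shifts bear on Pde4b and Pde5a was not tested.

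4OI without Tat called 3.15% of genes (2.47% higher, 0.686% lower) and 0 members (1 member and 2082 of all genes at an unadjusted p under 0.05). Pde4b was 30.03, 35.6 and 26.9 CPM with 4OI, within the range of Control, and differed by -0.07 (95% interval -0.58 to 0.44). Tat added to 4OI called 5.18% of genes (3.08% higher, 2.1% lower) and 0 members (2 members and 3034 of all genes at an unadjusted p under 0.05). Pde4b was at 0.68 (SE 0.25, FDR 0.115) and Pde9a at 0.48 (SE 0.20, FDR 0.164). Neither overlapped between the groups, nor did 29.5% of all genes. A fit to those 6 libraries alone called both (FDR 0.0293 and 0.0346). The response of Pde4b to Tat differed between cultures with and without 4OI by -1.01 (SE 0.36), which missed the threshold (FDR 0.222).

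On Tat-Cocaine, 4OI lowered 1 member, Pde4b, where 7.36% of genes were called, 3.29% as lower and 4.07% as higher. Pde4b was read at 43.9, 42 and 38.7 CPM against 60.3, 96.3 and 84.7 CPM, with no overlap and a log2 fold change of -0.92 (SE 0.25, FDR 0.0206 in limma). This call was lost without Tat-Cocaine replicate 2 (FDR 0.113), Tat-Cocaine replicate 3 (0.0584) or Tat-Cocaine-4OI replicate 3 (0.0824), in the fit to the 6 libraries (0.0967) and in that to the 21 libraries without the other compounds (0.0619). Pde5a was 9.36, 11.3 and 13.4 CPM against 16.6, 17.1 and 20.9 CPM, also without overlap, at -0.66 (SE 0.22, FDR 0.0583). Between these groups 20.6% of all genes did not overlap. Of the 8 microglia markers 2 were called lower, with sums of 236 to 919 CPM that overlapped those of Tat-Cocaine (650 to 1103 CPM). The astrocyte sums, 8943 to 13691 CPM against 6999 to 8901 CPM, did not overlap (3 of 8 called higher), nor did the mural sums, 690 to 1112 CPM against 499.9 to 557 CPM (0 of 6 called). The part of these shifts was not tested.

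**Figure D3:**
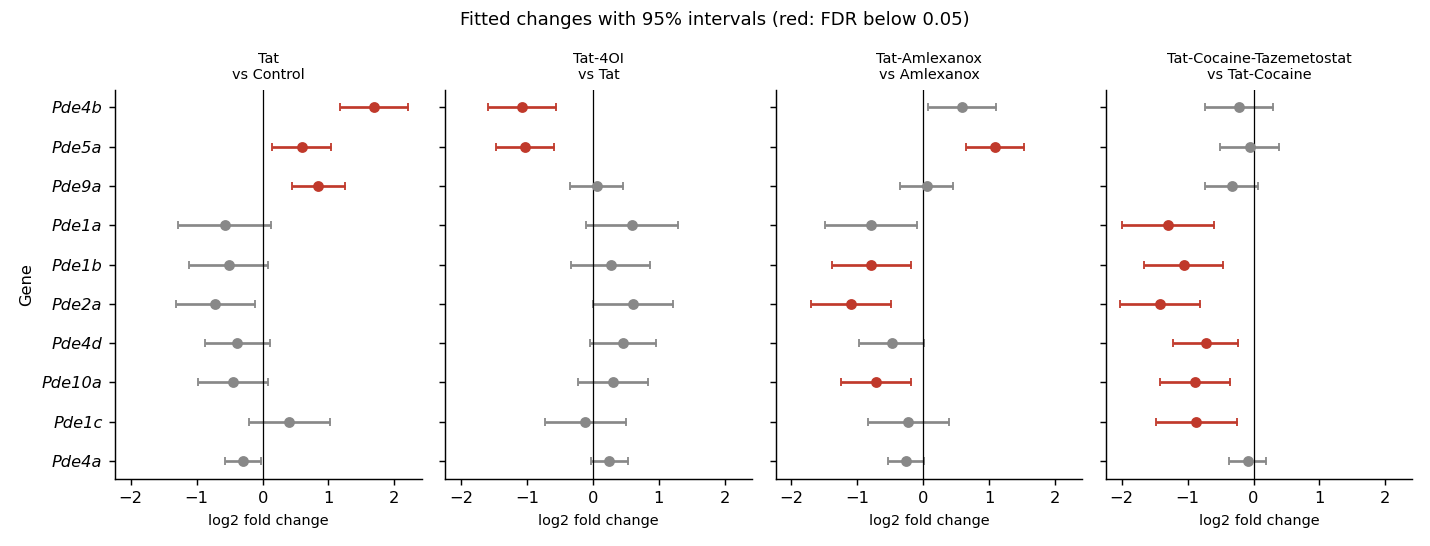
Log2 fold changes of the 10 genes (points) with 95% intervals (bars) from limma in 4 comparisons, red where the FDR is below 0.05 and grey otherwise. Pde4b and Pde5a move up with Tat and down with 4OI on Tat, and the genes called lower with Tazemetostat on Tat-Cocaine are Pde1a, Pde1b, Pde1c, Pde2a, Pde4d and Pde10a.

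Amlexanox on its own called 11.4% of genes (3.75% higher, 7.6% lower) and 0 members (2 members and 4154 of all genes at an unadjusted p under 0.05). Its lowest FDR was that of Pde5a, read at 13, 8.19 and 7.58 CPM against 13.2, 12.6 and 18.4 CPM in Control, at -0.62 (SE 0.22, FDR 0.0609). Without Amlexanox replicate 1 this became -0.85 and was called (FDR 0.00931). The mural markers summed to 701, 339.8 and 138 CPM in the same order of libraries, against 1028 to 1297 CPM in Control (2 of 6 called lower). The 2 libraries lowest in Pde5a were also the 2 lowest in these markers. The correlation (Pearson r, on log2 values) of Pde5a with the mural sum over all 48 libraries was 0.03. That value pools all treatments, so it does not describe the Amlexanox and Control libraries alone. Of the 8 astrocyte markers 5 were called lower, with sums that overlapped, and the part of either list was not tested. Amlexanox added to Tat called 0.837% of genes (0.403% higher, 0.434% lower) and 0 members (2 members and 1988 of all genes at an unadjusted p under 0.05). There Pde4b was 51.9, 79.2 and 75.9 CPM, each below the 3 Tat libraries, where 18% of all genes did not overlap. It differed by -0.62 (SE 0.25, FDR 0.274), beside mural sums of 376 to 453 CPM against 550 to 830 CPM in Tat. Added to Tat-Cocaine, Amlexanox called 0.925% of genes (0.346% higher, 0.579% lower) and 0 members (2 members and 2829 of all genes at an unadjusted p under 0.05). The largest difference was that of Pde2a at -0.94 (FDR 0.102).

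In the presence of Amlexanox, Tat raised Pde5a and lowered Pde2a, Pde1b and Pde10a, in a comparison that called 39.6% of genes, 22.6% as higher and 17% as lower. Pde5a was 20.4, 20.2 and 20.5 CPM in Tat-Amlexanox, above each Amlexanox library, with a log2 fold change of 1.09 (SE 0.22, FDR 0.000481 in limma). Pde2a, the cGMP-stimulated enzyme, read 67.5, 81.8 and 109 CPM against 173, 177 and 194 CPM, at -1.10 (SE 0.30, FDR 0.00539 in limma). Pde1b fell from 49.8, 35.7 and 38.5 CPM to 17.2, 22.9 and 32.9 CPM, at -0.79 (FDR 0.0342), and Pde10a from 26.9, 23 and 28 CPM to 13.9, 14.1 and 19.4 CPM, at -0.71 (FDR 0.0302). None of these 4 genes overlapped between the groups, nor did 49.8% of all genes.

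The Pde1b and Pde10a calls were each lost in 4 of the 6 fits that left out a library, with FDR values up to 0.185 for Pde1b (without Tat-Amlexanox replicate 1) and up to 0.107 for Pde10a (likewise). The Pde2a and Pde5a calls held in all 6. With the replicate number as a block, which here pairs the libraries, Pde1a at -0.79 (FDR 0.0304) and Pde4b at 0.59 (FDR 0.0377) were called as well. Beside these genes, neuron markers summed to 1775 to 2719 CPM in Tat-Amlexanox and 3267 to 4192 CPM in Amlexanox, with 4 of the 10 called lower and 4 of the 8 microglia markers called higher, and their part was not tested.

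Tazemetostat called 0% of genes against Control (576 at an unadjusted p under 0.05) and 0% on Tat (851), and 0 members at an unadjusted p under 0.05 in either. On Tat-Cocaine it lowered 6 of the 10 members and raised 0, where 28.7% of genes were called, 13.4% as lower and 15.2% as higher. Those 6 were Pde2a, Pde1a, Pde1b, Pde1c, Pde10a and Pde4d, with log2 fold changes of -1.42 (FDR 0.00471), -1.29 (0.0107), -1.06 (0.0126), -0.87 (0.0325), -0.89 (0.0155) and -0.73 (0.0283) in limma. Pde2a read 180, 166 and 129 CPM in Tat-Cocaine and 57.5, 48.4 and 70.7 CPM with Tazemetostat. Pde10a read 15.5, 13.6 and 14.7 CPM and then 8.21, 6.57 and 8.27 CPM. For each of the 6 the groups were apart, as they were for 47.7% of all genes.

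The calmodulin-dependent enzymes all fell in this comparison, as did Pde2a, Pde4d and Pde10a. Pde1a went from 24.6, 21.2 and 17.8 CPM to 8.26, 6.42 and 10.7 CPM, and Pde1b from 42, 38.1 and 28.2 CPM to 16.5, 13.4 and 21.7 CPM. Pde1c, which is low in these cultures, went from 6.34, 6.79 and 4.71 CPM to 3.09, 2.65 and 3.29 CPM. Pde4d, a cAMP-specific enzyme, was 20.4, 17.5 and 15.7 CPM and then 11.9, 7.59 and 12.9 CPM. Pde4b (-0.22, 95% interval -0.73 to 0.29), Pde5a (-0.06, -0.50 to 0.38), Pde9a (-0.33, -0.74 to 0.07) and Pde4a (-0.09, -0.36 to 0.19) were not called.

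Leaving out libraries in turn kept the Pde2a call (FDR up to 0.0483). The other 5 were not called without Tat-Cocaine replicate 1 (FDR 0.0691 to 0.130) or without Tat-Cocaine-Tazemetostat replicate 2 (0.0768 to 0.193), and Pde1b, Pde1c, Pde4d and Pde10a were not called without Tat-Cocaine replicate 2 (0.0533 to 0.118). Pde1c also missed without Tat-Cocaine-Tazemetostat replicate 1 (FDR 0.0625). Neuron markers summed to 928 to 1406 CPM with Tazemetostat against 2037 to 2688 CPM in Tat-Cocaine, 7 of the 10 called lower, and 4 of the 8 microglia markers were called higher, with sums of 1573 to 2609 CPM against 650 to 1103 CPM. Oligodendrocyte markers summed to 158 to 254 CPM against 433 to 1939 CPM, those of their precursors to 332 to 542 CPM against 620 to 753 CPM, and striatal neuron markers to 66.8 to 112 CPM against 154 to 236 CPM (4 of 8 called lower). Their part in the falls was not tested.

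Set against the neuron markers, the falls differed between genes. Per 1000 CPM of the neuron list, Pde2a was 65.4 ± 1.79 CPM (SD, n = 3) in Tat-Cocaine and 50.1 ± 2.13 CPM (SD, n = 3) with Tazemetostat, and Pde1a 8.77 ± 0.373 and 7.14 ± 0.418 CPM, with no overlap for either. Pde4d was higher on this scale, at 7.40 ± 0.413 and 9.08 ± 0.865 CPM, again without overlap. For Pde1b (14.9 ± 0.915 and 14.5 ± 0.834 CPM), Pde10a (6.12 ± 0.947 and 6.60 ± 0.634 CPM) and Pde1c (2.46 ± 0.207 and 2.59 ± 0.259 CPM) the groups overlapped. The falls of Pde2a and Pde1a on this scale hold against Tat-Cocaine, where both ratios were high. The Pde2a mean was 47.7 CPM in Control and 43.7 CPM in Tat, and the Pde1a mean 5.56 and 5.47 CPM. With Tazemetostat on Tat-Cocaine both means thus lay above those of Control and Tat. These ratios are a description and carry no test.

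**Figure D4:**
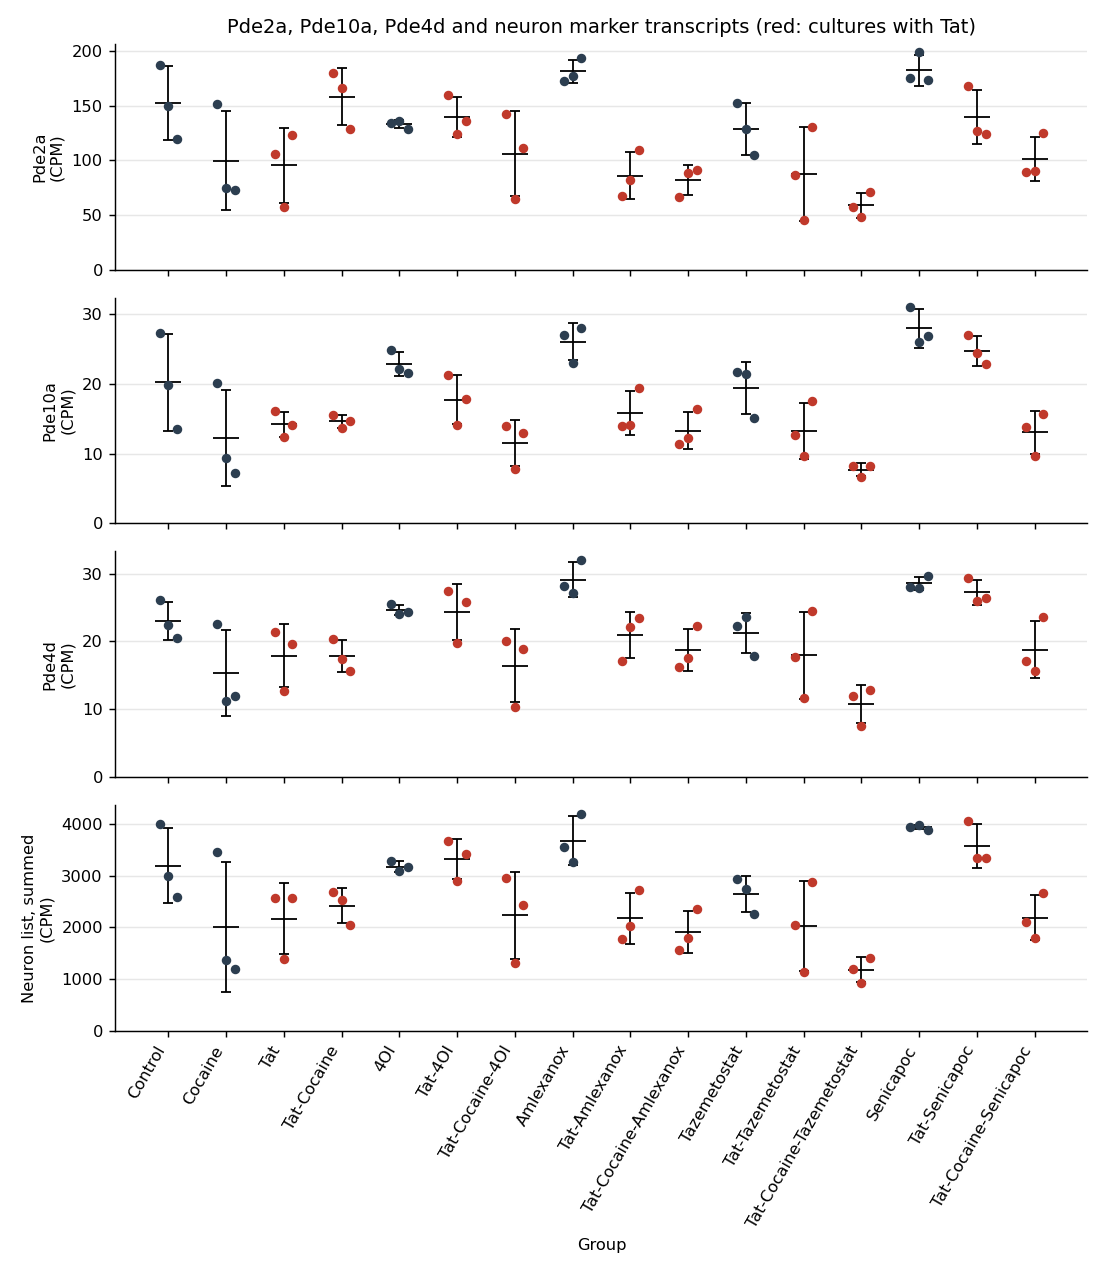
CPM (linear axes from 0) of Pde2a, Pde10a and Pde4d and the summed CPM of the 10 neuron markers in each library of the 16 groups, as points, with mean and SD. In each panel the Tat-Cocaine-Tazemetostat mean is the lowest of the 16 (Pde2a 48.4 to 70.7 CPM, neuron sum 928 to 1406 CPM).

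Over the 48 libraries, which share treatments and scaling, the correlation (Pearson r, on log2 values) with the summed neuron markers was 0.96 for Pde4d, 0.94 for Pde2a, 0.94 for Pde10a, 0.88 for Pde1a, 0.87 for Pde1b and 0.68 for Pde4a. For Pde4b it was -0.27, with -0.76 against the astrocyte sum, -0.63 against the striatal neuron sum, -0.58 against the mural sum and 0.50 against the microglia sum. For Pde5a it was -0.29, with 0.47 against the microglia sum, 0.45 against the endothelial sum, -0.44 against the striatal neuron sum and 0.03 against the mural sum. Pde1c stood at 0.71 against the oligodendrocyte sum, which 1 Cocaine library dominates. Among the members, over 16 group means, r was 0.97 for Pde10a with Pde4d, 0.93 for Pde1b with Pde2a and 0.90 for Pde1a with Pde2a, while Pde4b was at 0.74 with Pde5a and 0.65 with Pde9a.

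Tat was also compared within Tazemetostat and within Senicapoc cultures. With Tazemetostat, Tat raised Pde4b and Pde9a, where 16.1% of genes were called, 10.4% as higher and 5.63% as lower. Pde4b was 35.5, 32.2 and 19.3 CPM without Tat and 76.9, 86.9 and 80.6 CPM with it, a log2 fold change of 1.52 (SE 0.25, FDR 6.71e-05 in limma). Pde9a was 23, 21.7 and 12.2 CPM and then 36.2, 24.0 and 29.5 CPM, at 0.68 (SE 0.20, FDR 0.0177 in limma). That Pde9a call was lost without Tazemetostat replicate 3 (0.39, FDR 0.185), Tat-Tazemetostat replicate 1 (FDR 0.102) or the other groups (FDR 0.198). Without Tat-Tazemetostat replicate 3, Pde1b at -1.01 (FDR 0.0236) and Pde2a at -1.01 (FDR 0.0209) were called too. The microglia markers summed to 1143 to 2663 CPM with Tat against 851 to 1124 CPM, 2 of the 8 called higher. The astrocyte markers summed to 6735 to 9041 CPM against 11749 to 14257 CPM (4 of 8 called lower), the mural markers to 479 to 545 CPM against 918 to 1154 CPM (3 of 6 lower) and the striatal neuron markers to 72.1 to 164 CPM against 217 to 234 CPM (1 of 8 lower). None of these sums overlapped, and their part was not tested.

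With Senicapoc, Tat raised 1 member, Pde4b, where 16% of genes were called, 10.8% as higher and 5.15% as lower. Its libraries read 35.5, 48.3 and 32 CPM without Tat and 84.7, 83.1 and 68.3 CPM with Tat, at 1.04 (SE 0.25, FDR 0.00458 in limma). The groups were apart, as they were for 34.2% of all genes. Pde9a was at 0.43 (FDR 0.139), and without Senicapoc replicate 2 at 0.63 (FDR 0.0385). Of the 8 microglia markers 4 were called higher, with sums of 852 to 1563 CPM against 465 to 759 CPM, and their part was not tested. Senicapoc itself called 0% of genes against Control (1378 at an unadjusted p under 0.05), 0.409% on Tat (0.0692% higher, 0.34% lower) and 0.0441% on Tat-Cocaine (0.0126% higher, 0.0315% lower), and 0 members in each. Of the members 0, 4 and 1, in that order, were at an unadjusted p under 0.05, with 2909 of all genes on Tat and 2466 on Tat-Cocaine. On Tat the lowest FDR was 0.131 for Pde10a (0.79, SE 0.26). Beside it the neuron markers summed to 3330 to 4064 CPM against 1378 to 2562 CPM in Tat and the striatal neuron markers to 202 to 279 CPM against 83.5 to 175 CPM, without overlap and with 0 called in either list, and their part was not tested.

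Across the 5 settings in which Tat was added, the fitted change of Pde4b was 1.69 alone, 1.52 with Tazemetostat, 1.04 with Senicapoc, 0.68 with 4OI and 0.59 with Amlexanox. That a response was called in one setting and not in another does not show that it differed. The difference between the responses with and without Amlexanox was -1.10 (SE 0.36, FDR 0.0864). It was called without Amlexanox replicate 1 (-1.33, FDR 0.0202) and with a replicate block (FDR 0.0489). In 13 tests of differences between responses, 0 of 130 values of the members were called, against 0% to 9.32% of all genes in each. An unadjusted p under 0.05 was reached by 29 of the 130 (22.3%) and by 12.5% of the values of all genes. The lowest FDR was 0.0588, in the test that called 9.32% of genes, for the effect of Amlexanox on Pde2a in Tat-Cocaine against Control cultures (-1.22, SE 0.42). That difference was called under 5 of 20 other settings, namely with a replicate block (FDR 0.0375), with quantile normalization (0.0490) and without Control replicate 1 (0.0340), Tat-Cocaine replicate 3 (0.0334) or Amlexanox replicate 1 (0.0492).

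Cocaine added to Tat in the presence of a compound called 0 members with each of the 4 compounds, with 2, 0, 2 and 2 of the members at an unadjusted p under 0.05 for 4OI, Amlexanox, Tazemetostat and Senicapoc. Of all genes 0% were called with 4OI (1473 at an unadjusted p under 0.05), Amlexanox (258) and Tazemetostat (1365), and 0.183% with Senicapoc (2192). The lowest FDR of a member was 0.108, for Pde10a with Senicapoc, which read 26.9, 24.4 and 22.8 CPM in Tat-Senicapoc and 13.8, 9.58 and 15.7 CPM with cocaine added (-0.92, SE 0.26). The neuron markers summed to 1799 to 2656 CPM there against 3330 to 4064 CPM in Tat-Senicapoc, and the striatal neuron markers to 123 to 194 CPM against 202 to 279 CPM, with 0 called in either list, and their part was not tested.

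Pde4b has a companion in the table. The gene most like it over the 16 group means was AABR07049466.1 (r = 0.996), which ran from 1.74 to 11.2 CPM and stood at 8.94 to 12.5 CPM of Pde4b per CPM of its own. Values were converted to reads with 1 read taken as the most frequent value above 0 in a library, within 0.03 read. In 28 libraries both genes held whole reads, in 20 both lay 0.5 of a read off a whole number, and in 0 libraries did they differ in this. Its position was not used here, so reads shared between this gene and Pde4b cannot be told apart. The next most like Pde4b were RT1-Bb (r = 0.98) and RT1-Da (r = 0.97), which encode MHC class II chains.

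**Figure D5:**
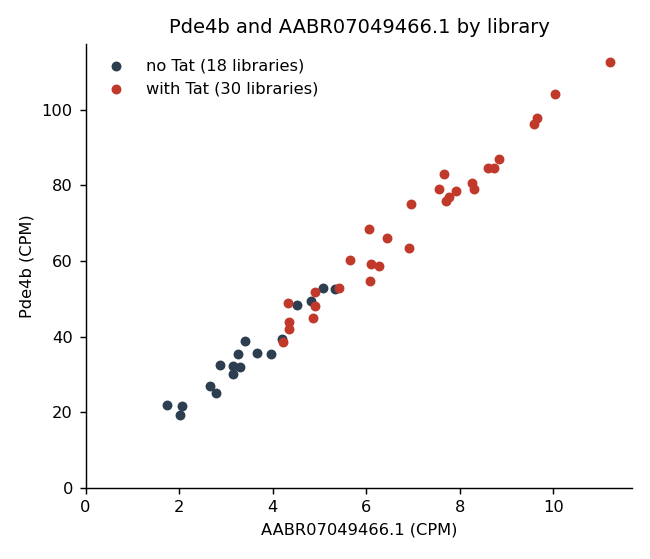
CPM of Pde4b (vertical) against CPM of AABR07049466.1 (horizontal) in 48 libraries, 18 without Tat and 30 with it, on linear axes from 0. The points lie along a line, with 8.94 to 12.5 times as many CPM for Pde4b in each library.

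The genes most like the other members, as a description over 16 group means, were Syt7, Gpsm1 and Syn2 for Pde2a (r = 0.98 to 0.99), Sorcs3, Diras2 and Dlgap3 for Pde10a (0.98 to 0.99) and Slc35f3, Fgf9 and Diras2 for Pde4d (0.98 to 0.99). For Pde1a they were Tiam2, Pcdh1 and Tcaf1 (0.95 to 0.96), and for Pde1b Igsf21, Apba2 and Speg (0.98 each). Pde1c was most like Inava (0.95), Cdhr2 (0.87) and Apod (0.86), and Pde4a most like Fbxl2 (0.94), Tbc1d9 (0.90) and Slc7a4 (0.90). Those of Pde5a were Cyp4f4 (0.95), Clec2g (0.94) and Phf12 (0.94), and those of Pde9a were Htatip2 (0.93), Gng8 (0.92) and Kcnd1 (0.92).

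The counts over lists of related genes that follow are to be read against all genes, of which 14.6% were higher and 6.7% lower with Tat, 6.1% and 9.48% with 4OI on Tat, 4.07% and 3.29% with 4OI on Tat-Cocaine, 3.75% and 7.6% with Amlexanox, and 15.2% and 13.4% with Tazemetostat on Tat-Cocaine. Of the 11 other phosphodiesterase genes tested, Tat lowered 1 and raised 0. Pde8b, a cAMP-specific enzyme, fell from 41.5 to 22.5 CPM in the mean (-0.88, SE 0.18, FDR 0.000573 in limma), opposite to Pde4b. With 4OI on Tat it rose to 33.8 CPM (0.58, FDR 0.0276), while Pde8a, of the same subfamily, fell from 6.25 to 3.24 CPM (-0.89, FDR 0.0443). With 4OI on Tat-Cocaine, Pde8a fell from 6.86 to 2.24 CPM (-1.38, FDR 0.00396), the 1 call among the 11. Amlexanox lowered Pde6h (-1.33, FDR 0.0244), and on Tat it raised Pde7b, a cAMP-specific enzyme, from 8.71 to 14.9 CPM (0.74, FDR 0.0479). Tazemetostat on Tat-Cocaine raised Pde6h (1.88) and lowered Pde3a, the cGMP-inhibited enzyme (-0.66, FDR 0.0232).

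The cyclic nucleotides cleaved by these enzymes are made by cyclases. Of 18 genes tested for adenylyl and guanylyl cyclases and nitric oxide synthases, 0 were called in Tat against Control, and 1 was called lower with 4OI on Tat, Adcy7, an adenylyl cyclase, from 40.1 to 17.4 CPM (-1.24, FDR 0.0341 in limma). On Tat-Cocaine, 4OI lowered 1, Gucy2g, at under 1 CPM. Amlexanox alone lowered 1, Npr2, the receptor cyclase for C-type natriuretic peptide (-0.68, FDR 0.0184). Tazemetostat on Tat-Cocaine lowered 6 and raised 3. Those with the lowest FDR were Gucy2g, Nos1, the neuronal nitric oxide synthase (30.9 to 11.4 CPM, -1.41), and Adcy1, a calmodulin-stimulated cyclase (60.2 to 25.1 CPM, -1.22).

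Among 21 targets of cAMP and cGMP, Tat raised 1 and lowered 3. Prkar2a, a regulatory subunit of protein kinase A, rose from 59.2 to 92.9 CPM (0.64, SE 0.12, FDR 0.000109 in limma), Rapgef3, the cAMP-activated exchange factor Epac1, fell from 33 to 16.8 CPM (-0.96), and Hcn2, a cyclic nucleotide-gated pacemaker channel, from 46.2 to 34.5 CPM (-0.41, FDR 0.0253). With 4OI on Tat 3 were higher and 1 lower, among them Hcn2 (0.67), Prkar2a (-0.46) and Prkacb, a catalytic subunit of protein kinase A (0.59). Amlexanox lowered Rapgef3 (33 to 16.9 CPM, FDR 0.00181) and raised Prkar2b (0.73), and on Tat-Cocaine Tazemetostat lowered 8 and raised 0, with Pkia (-1.04), Rapgef4 (-1.58) and Hcn3 (-0.97) of lowest FDR. On Tat-Cocaine, 4OI changed 0 of the 21.

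The 16 genes chosen as cAMP-responsive transcripts and their regulators moved in both directions. Tat lowered Ppargc1a, a transcriptional coactivator of mitochondrial genes (-0.79, FDR 0.00044 in limma), and the clock gene Per1 (-0.54, FDR 0.0177), and raised Atf1, a CREB-family factor (0.46, FDR 0.0154). With 4OI on Tat, Crtc1 (0.42) and Ppargc1a (0.53) were higher and Atf1 (-0.41) was lower, and on Tat-Cocaine 4OI lowered Sik1 (-0.88) and Per1 (-0.61). 4OI alone raised 1, the immediate-early gene Fos (0.70, FDR 0.0283). Amlexanox alone raised 3 and lowered 0, Fos (1.04), Crem (0.57) and Nr4a1 (0.87). On Tat-Cocaine, Tazemetostat raised 3 and lowered 3, with Per1 (-0.74), Sik1 (-0.65) and Crtc2 (0.33) of lowest FDR, and on Tat Senicapoc raised Sik1 (0.74, FDR 0.0467).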

How the data were processed

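Rat primary cortical cultures were profiled by strand-specific paired-end RNA-seq (48 libraries, 16 groups of 3, grouped by the labels). The authors aligned reads with STAR and counted unique reads per gene with featureCounts; their methods name the build Rnor_6.0 and their processing notes mRatBN7.2. The signal deposited by the authors is CPM after TMM scaling in edgeR. Values of a library sum to 930399 to 1046890, and with 1 read taken as the most frequent value above 0, 85.0 to 87.3% of values above 0 are whole reads within 0.02 read, so no count test was run. The authors' group means and comparison columns (log2 fold change, average log2 CPM, likelihood ratio, p-value and FDR) were not used.

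Log2(CPM + 0.5) of the 15890 genes reaching 0.5 CPM in 3 or more libraries was fitted with limma 3.58.1 in R 4.3.3 (lmFit, eBayes with trend, 1 mean per group, two-sided, Benjamini-Hochberg FDR under 0.05), in 24 comparisons and 13 differences of responses. Comparisons that share a group share its libraries. 0.5 CPM stood for 8.58 to 15.0 reads. With 3 against 3 libraries an exact permutation test cannot go below p = 0.1 and was not used. The fit was tested on simulated data. Replicate numbers were taken to pair libraries where same-numbered libraries deviated together (r over 0.1 for all 3 numbers), as in 9 of the 24 comparisons (r 0.142 to 0.814). These are 4OI, Senicapoc, Tazemetostat and Tat-Cocaine against Control, Tat-Amlexanox against Amlexanox and against Tat, and cocaine added to Tat with 4OI, Amlexanox or Tazemetostat.

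The 10 genes and the gene lists were chosen with earlier results of these data known. Named are all 10 members, the 3 genes of lowest FDR per other list in Tat vs Control, in 4OI on Tat and in each compound against its own background, and the 3 genes most like each member. Prkg1, Cnga2 and Pecam1 were not analysed here. Alternatives covered pseudocount, filter, scaling, variance trend, libraries in the fit, replicate block and left-out libraries. Promoter sequences are RefSeq's on GRCr8, another build than the authors', and were matched by symbol.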

Additional observations from a re-analysis of the deposited data

How the results depend on the processing

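No value changed direction where it was called. Counts of members called moved by over 1.5 times as follows. With only the libraries of the 2 groups compared, 1 member was called in Tat against Control (3 in the full fit), 0 in Tat-Cocaine against Control (2), 0 with 4OI on Tat-Cocaine (1), 2 for Tat added to 4OI (0) and 1 for Tat added to Tazemetostat (2). For 4OI on Tat-Cocaine the count was 2 with median ratio rescaling and 2 with the replicate block, Pde5a being the second (FDR 0.0478 and 0.0494), and 0 with the 21 libraries of 7 groups. The block also called 1 member with Senicapoc on Tat (Pde10a, 0.79, FDR 0.0479) and Pde1b for Tat added to Tazemetostat (-0.72, FDR 0.0325). In these 3 comparisons the samples share a number without pairing, and apart from the calls given above the block changed no other call in the 24 comparisons. Without Cocaine replicate 3 in the shared fit, an alternative chosen after seeing the data, 2 members were called with 4OI on Tat-Cocaine (Pde5a, FDR 0.0390) and 1 with Amlexanox (Pde5a, FDR 0.0422). Leaving out 1 library of the groups compared at a time gave 2 to 4 members in Tat against Control, 0 to 4 in Cocaine against Control, 0 to 1 with 4OI on Tat-Cocaine, with Amlexanox and with Amlexanox on Tat-Cocaine, 1 to 6 with Tazemetostat on Tat-Cocaine, 2 to 5 for Tat added to Amlexanox, 1 to 4 for Tat added to Tazemetostat and 1 to 2 for Tat added to Senicapoc. Among the differences between responses, 0 of which were called in the full fit, leaving out Cocaine replicate 1 called those of cocaine on Tat against on Control for Pde2a (1.799, FDR 0.00944), Pde4a (0.82, 0.0042) and Pde10a (1.24, 0.0224). For Amlexanox on Tat-Cocaine against on Control, leaving out Amlexanox replicate 1 called Pde4b (-1.16, 0.0263), Pde5a (0.94, 0.0323) and Pde9a (-0.83, 0.0485), and leaving out Control replicate 1 called Pde9a (-0.86, 0.0456). The share of all genes called is not given here for any of these refits. The counts and calls of members under them therefore have no background to be read against, and the same holds for refits given in earlier paragraphs. The cause of these moves was not tested. With 3 libraries a group, small changes of these genes could not be told from the spread between samples.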
